A study of Mus musculus with 4 samples.

Results

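The PI3K, AKT and mTOR pathway was examined as a group of 33 named genes in regulatory T cells (Tregs) that lack the microRNA miR-142. A gene entered through the probe sets carrying its symbol as their only symbol, and the probe set with the highest mean over the 4 arrays stood for it. This gave 32 measured genes among the 22180 gene symbols carried by such probe sets. Rps6kb1, the S6 kinase gene, was not analysed here. Deptor had 2 probe sets and the other 31 genes had 1 each.

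Tregs were isolated ex vivo from spleens and lymph nodes of C57BL/6 animals by sorting CD4+ CD25+ YFP+ cells. TregΔ142 mice carry FoxP3YFP-Cre with Mir142 fl/fl, and WT mice carry the same FoxP3YFP-Cre with Mir142+/+, so Cre and YFP expressed from the Foxp3 locus are shared by both groups. There were 2 arrays in each group. The floxed allele was made in embryonic stem cells of another strain and backcrossed to C57BL/6, and the age and sex of the mice used for the arrays are not given in the sources used here. The duplicates were handled separately, but whether each was an animal or a pool is not stated, and p-values then reflect only the scatter of these samples, possibly a technical one. All values are log2 expression after robust multi-array averaging (RMA), and every difference is TregΔ142 minus WT on that scale.

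Phosphoinositide 3-kinases (PI3Ks) are lipid kinases that act below the T cell receptor, costimulatory receptors and cytokine receptors. Their lipid product brings PDK1 and AKT to the membrane, AKT restrains the TSC complex and FOXO transcription factors, and the mTOR kinase acts in complex 1 (mTORC1), which promotes translation and growth, and in complex 2 (mTORC2), which phosphorylates AKT and SGK kinases. In Tregs strong AKT signalling is known to weaken suppressive identity, while some mTORC1 activity is needed for suppressive function. Much of this control is exerted by phosphorylation, which mRNA levels do not measure.

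Mir142 lies on mouse chromosome 11, and both mature strands are shown because their loss defines TregΔ142 cells. Capitals mark the seed (bases 2 to 8), the stretch through which a microRNA pairs with its targets. The positions are chr11:87756867-87756887 for the 5p strand and chr11:87756903-87756925 for the 3p strand (GRCm38.p6, plus strand, sequences from RefSeq).
mmu-miR-142a-5p: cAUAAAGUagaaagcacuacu
mmu-miR-142a-3p: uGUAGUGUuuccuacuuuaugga

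The Mir142 probe set read 6.44 and 5.96 in TregΔ142 Tregs, against 8.88 and 9.26 in WT Tregs, and it fell by 2.87 on the log2 scale (SE 0.204, limma adjusted p = 0.0219). With 1 TregΔ142 array left out the adjusted p was 0.125 (without replicate 1) or 0.285 (without replicate 2), at differences of −3.11 and −2.63. Foxp3, which specifies the lineage, read 11.84 and 11.81 in TregΔ142 Tregs and 11.7 and 11.67 in WT Tregs, high on every array. Among marker genes of other cells, 9 macrophage and monocyte markers averaged 6.76 and 6.56 in TregΔ142 Tregs, against 7.39 and 6.39 in WT Tregs, so the list mean was highest in WT replicate 1, as were 7 of the 9 genes. Lyz2, the lysozyme gene, was lowest in WT replicate 1, with 9.31 and 8.68 in TregΔ142 and 8.05 and 8.64 in WT (difference 0.65, limma adjusted p = 0.423). The list means of 7 B cell markers (means of 6.36 and 6.50 in TregΔ142 and of 6.58 and 6.27 in WT), 8 neutrophil markers (means of 6.10 and 6.57 in TregΔ142 and of 5.74 and 6.64 in WT) and 2 CD8 T cell markers (means of 7.43 and 7.32 in TregΔ142 and of 7.30 and 7.64 in WT) overlapped between the groups. Within the B cell list, Cd79b (8.44 and 8.38 in TregΔ142, 8.79 and 8.76 in WT) and Ebf1 (5.10 and 5.27 in TregΔ142, 5.58 and 5.48 in WT) were lower without overlap, at adjusted p = 0.309 and 0.377, and 1 neutrophil marker was higher without overlap. The 4 NK cell markers averaged 7.23 and 7.29 in TregΔ142, against 6.90 and 6.78 in WT. Nkg7, a cytotoxic granule gene, was 2.89-fold higher (limma adjusted p = 0.172). Its log2 difference was 1.065 without WT replicate 1 and 1.997 without WT replicate 2. Without Nkg7 the other 3 NK cell markers averaged 6.07 and 5.99 in TregΔ142 and 6.21 and 5.75 in WT, with overlap. The 7 Treg markers averaged 11.68 and 11.69 in TregΔ142, against 11.51 and 11.36 in WT, without overlap. Of these 7 genes, 5 were higher without overlap and 0 lower. Over all probe sets, 23.9% were higher and 19.8% lower without overlap. Tnfrsf18 (difference 0.57, limma adjusted p = 0.229) and Il2ra had an unadjusted p under 0.05. The part of other cells in the differences given for pathway genes was not tested. The table has no detection calls, so which of these low levels are background is unknown, and erythroid markers were not analysed here.

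Most PI3K, AKT and mTOR genes differed little between TregΔ142 and WT Tregs. Of the 32 genes, 21 differed by less than 0.2 on the log2 scale, and in 18 the difference was smaller than the larger gap between the 2 arrays of a group. The genes with the largest differences were Ddit4, which encodes the mTORC1 inhibitor REDD1, and Sgk1, a kinase related to AKT. Ddit4 was 2.17-fold higher and Sgk1 2.07-fold higher in TregΔ142 Tregs. At the other end, Pik3r5, which encodes a regulatory subunit of PI3Kγ, was 1.6-fold lower.

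None of the 32 genes passed a limma adjusted p of 0.05 over all 23521 probe sets tested, against a background of 6 probe sets (0.0255%), which became 0 without either TregΔ142 array, 128 without WT replicate 1 and 46 without WT replicate 2. At an unadjusted p under 0.05, 3 genes were higher (9.38%: Ddit4, Eif4ebp1 and Sgk1) beside 6.82% of all probe sets, and 3 were lower (9.38%: Phlpp1, Pik3r5 and Sgk3) beside 4.85%. Among the 11760 probe sets with a mean above the median of all, where all 32 genes lay, 8.2% were higher and 6.16% lower at this p. Without TregΔ142 replicate 2 only Phlpp1 was lower at this level, and Phlpp1 did not reach it without WT replicate 1, nor Pik3r5 without WT replicate 2. With a fold of at least 2 added, Ddit4 and Sgk1 were higher (6.25%) beside 0.391% of all probe sets, and no gene was lower beside 0.115%. Sgk1 was barely under 2-fold after centring each array on its median (log2 difference 0.9995). It was also under 2-fold without WT replicate 2 (0.93), as was Ddit4 without TregΔ142 replicate 1 (0.94). Centring also turned the balance of all probe sets at unadjusted p under 0.05, which was 1605 higher and 1141 lower as deposited and 1128 higher and 1569 lower after centring.

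The differences leaned towards lower values in TregΔ142 Tregs. A negative log2 fold change was found for 23 of the 32 genes (71.9%), beside 47.5% of all probe sets and 52.7% of the 11760 probe sets above the median level, where all 32 genes lay. After median centring 26 genes were negative, beside 57.5% of all probe sets, and without TregΔ142 replicate 2 there were 19. The median over the genes was −0.09, beside 0.01 over all probe sets, and it was −0.03 without TregΔ142 replicate 2. Both TregΔ142 arrays were below both WT arrays in 14 genes (43.8%), beside 19.8% of all probe sets and 25.5% of those above the median level. Both were above in 6 genes (18.8%), beside 23.9% of all probe sets and 24.2% of those above the median level. After centring, 18 genes were lower and 5 higher without overlap, beside 25.9% and 17.7% of all probe sets. Shares after centring were not taken among the probe sets above the median level. The 32 genes were chosen with earlier results of these data known, so these shares only describe them.

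**Figure D1:**
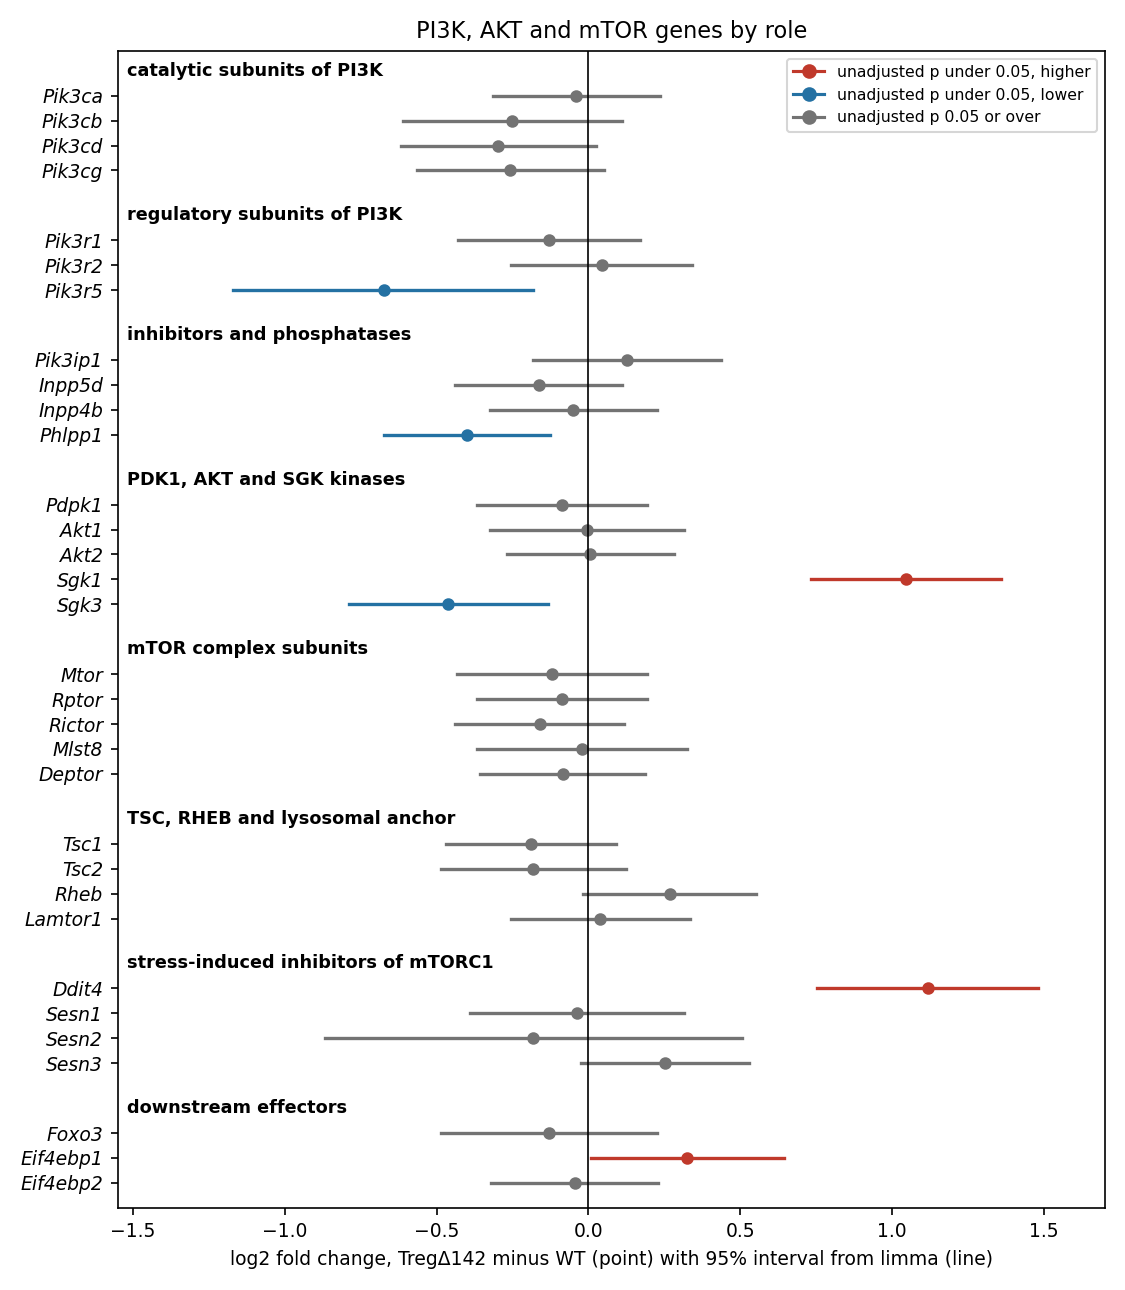
The log2 fold change of each gene, TregΔ142 minus WT, is drawn as a point with its 95% interval from limma (line), and genes are grouped by role. Sgk1 at 1.05 and Ddit4 at 1.12 stand to the right of all others, Pik3r5 at −0.67 lies farthest left, and most intervals cross 0.

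**Figure D2:**
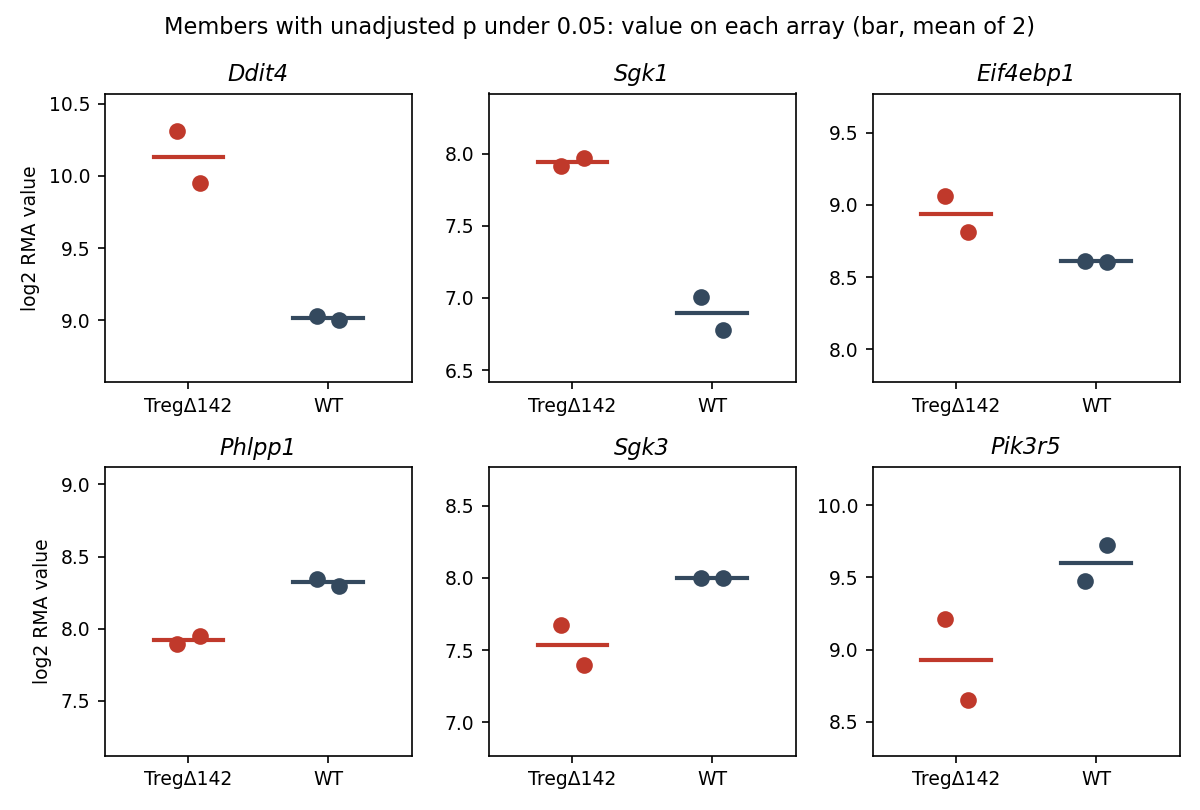
Log2 expression (RMA) on each array is plotted as a point, with TregΔ142 left of WT and a bar at each group's mean, for the 6 genes with unadjusted p under 0.05 (each vertical axis spans 2 log2 units). Ddit4 at 10.31 and 9.95 in TregΔ142 and Sgk1 at 7.91 and 7.97 in TregΔ142 stand about 1 unit above their WT points, and Pik3r5 has the widest gap within TregΔ142 of the 6.

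Catalytic subunits of PI3K make the lipid signal, and in T cells the leukocyte forms PI3Kδ (Pik3cd) and PI3Kγ (Pik3cg) add to the widely expressed PI3Kα (Pik3ca) and PI3Kβ (Pik3cb). All 4 had negative differences and none reached an unadjusted p under 0.05. Pik3cd read 10.16 and 9.94 in TregΔ142, against 10.28 and 10.41 in WT, a difference of −0.30 (95% interval −0.62 to 0.02, limma adjusted p = 0.46). Pik3cg read 9.08 and 8.88 in TregΔ142, against 9.19 and 9.28 in WT, a difference of −0.26 (adjusted p = 0.496). In both leukocyte forms every TregΔ142 array lay below every WT array, and without TregΔ142 replicate 2 the differences were −0.18 for Pik3cd and −0.16 for Pik3cg. Pik3cb also had no overlap, but its WT arrays were 0.35 apart (7.14 and 7.19 in TregΔ142, 7.59 and 7.24 in WT) and the difference of −0.25 was −0.08 without WT replicate 1 and −0.43 without WT replicate 2. Pik3ca read 9.86 and 9.81 in TregΔ142 and 9.90 and 9.85 in WT, with overlapping arrays and an interval of −0.31 to 0.23.

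Among regulatory subunits, Pik3r5 encodes p101, which couples PI3Kγ to G protein βγ subunits. It read 9.21 and 8.65 in TregΔ142 Tregs, against 9.48 and 9.73 in WT Tregs. Both TregΔ142 arrays lay below both WT arrays, and TregΔ142 replicate 2 was the lowest. The difference was −0.67 (SE 0.204, 95% interval −1.17 to −0.18, limma adjusted p = 0.301), and without TregΔ142 replicate 2 it was −0.39. Without WT replicate 1, the array with the highest mean of macrophage and monocyte markers, it was −0.80, and the part of such cells in this difference was not tested. Pik3r1 and Pik3r2 encode p85α and p85β, which stabilise the catalytic subunits and hold them inactive. Their differences were −0.13 and 0.04, and the arrays of both genes overlapped. In bulk samples like these, fewer cells of a type and less RNA per cell cannot be told apart.

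Proteins that damp PI3K signalling include PIK3IP1, a membrane protein that inhibits PI3K, the lipid phosphatases SHIP1 (Inpp5d) and INPP4B, and PHLPP1, a phosphatase that removes phosphate from AKT. Phlpp1 read 7.89 and 7.95 in TregΔ142 Tregs, against 8.35 and 8.30 in WT Tregs. Replicates lay within 0.06 of each other in both groups, and the difference was −0.40 (SE 0.114, 95% interval −0.67 to −0.13, limma adjusted p = 0.276). Inpp5d read 10.51 and 10.44 in TregΔ142, against 10.65 and 10.62 in WT, a difference of −0.16 without overlap. Inpp4b differed by −0.05 with overlap. Pik3ip1 differed by 0.13, and its 2 arrays at 8.61 and 8.59 in TregΔ142 lay above WT arrays at 8.59 and 8.36, the nearest pair almost equal.

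Differences of the kinases downstream of PI3K ranged from −0.46 to 1.05. Akt1 read 9.56 and 9.39 in TregΔ142, against 9.38 and 9.57 in WT, and Akt2 read 9.82 and 9.89 in TregΔ142, against 9.83 and 9.87 in WT. Their 95% intervals ran from −0.33 to 0.31 for Akt1 and from −0.27 to 0.28 for Akt2. Pdpk1, which encodes PDK1, the kinase that phosphorylates both AKT and SGK proteins, differed by −0.09 (adjusted p = 0.813).

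Sgk1 is a serum- and glucocorticoid-induced kinase activated by mTORC2 and PDK1 that shares many substrates with AKT. It read 7.91 and 7.97 in TregΔ142 Tregs, against 7.01 and 6.78 in WT Tregs. TregΔ142 replicates were 0.05 apart, WT replicates 0.23 apart, and the groups did not overlap. The difference was 1.05 (SE 0.130, 95% interval 0.73 to 1.36, limma adjusted p = 0.0706). Leaving out 1 array at a time gave differences of 0.93 to 1.16. Sgk3, a relative of SGK1 found on endosomes, went the other way. It read 7.68 and 7.40 in TregΔ142, against 7.999 and 8.0 in WT, a difference of −0.46 (SE 0.136, 95% interval −0.79 to −0.13, adjusted p = 0.292).

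The mTOR kinase works with RAPTOR (Rptor) in mTORC1, with RICTOR in mTORC2, and with MLST8 and the inhibitor DEPTOR in both. The 5 genes all had negative differences, of −0.02 for Mlst8, −0.08 for Deptor, −0.09 for Rptor, −0.12 for Mtor and −0.16 for Rictor. None reached an unadjusted p under 0.05. Rictor read 9.49 and 9.59 in TregΔ142, against 9.70 and 9.69 in WT, and Rptor read 9.08 and 9.13 in TregΔ142, against 9.14 and 9.24 in WT, both without overlap but by small margins. Mtor read 9.07 and 8.89 in TregΔ142, against 9.02 and 9.18 in WT, with overlap. The second Deptor probe set gave −0.10.

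TSC1 and TSC2 form the complex that switches off RHEB, the GTPase that activates mTORC1 on the lysosome, where LAMTOR1 helps to anchor it. Tsc1 differed by −0.19 and Tsc2 by −0.18, both without overlap. Rheb read 9.19 and 9.09 in TregΔ142, against 8.83 and 8.93 in WT. Its difference of 0.27 had the opposite sign, again without overlap (95% interval −0.02 to 0.55, adjusted p = 0.456). Lamtor1 read 8.39 and 8.38 in TregΔ142, with WT arrays at 8.25 and 8.43, for a difference of 0.04 with overlap.

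Stress restrains mTORC1 through REDD1, which acts by way of the TSC complex and is induced by hypoxia, glucocorticoids and energy stress, and through the sestrins, which sense stress and amino acids. Ddit4, the REDD1 gene, read 10.31 and 9.95 in TregΔ142 Tregs, against 9.026 and 8.999 in WT Tregs. Both TregΔ142 arrays lay far above WT arrays, although they were farther apart than the WT pair. The difference was 1.12 (SE 0.151, 95% interval 0.75 to 1.48, limma adjusted p = 0.0792), and without 1 array it ran from 0.94 to 1.30. The sestrins showed no common direction. Sesn3 read 11.09 and 11.08 in TregΔ142, against 10.88 and 10.78 in WT, a difference of 0.25 (95% interval −0.03 to 0.53). Sesn1 differed by −0.04 with overlap. Sesn2 read 7.31 and 6.50 in TregΔ142, against 6.86 and 7.32 in WT, the widest replicate gaps of all 32 genes, and its interval of −0.87 to 0.50 left the direction undetermined.

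Promoter sequence of Ddit4 and Sgk1 is printed as these were the genes past 2-fold. Each run is the stretch of 250 bases before the annotated start (GRCm38.p6, RefSeq, 5′ to 3′ on the gene's strand), at chr10:59951771-59952020 on the minus strand for Ddit4 and chr10:21993640-21993889 on the plus strand for Sgk1. Sgk1 had 6 listed start sites, and the one shown is the one whose window held the letters ACGTG, the core of the hypoxia response element. Capitals mark ACGTG in Ddit4 and CACGTG, an E-box, in Sgk1.
Ddit4: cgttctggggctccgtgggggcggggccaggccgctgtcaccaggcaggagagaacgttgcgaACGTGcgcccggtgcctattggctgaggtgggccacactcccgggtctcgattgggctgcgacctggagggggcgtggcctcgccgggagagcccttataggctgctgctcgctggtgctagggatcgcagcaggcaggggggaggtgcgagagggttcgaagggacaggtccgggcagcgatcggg
Sgk1: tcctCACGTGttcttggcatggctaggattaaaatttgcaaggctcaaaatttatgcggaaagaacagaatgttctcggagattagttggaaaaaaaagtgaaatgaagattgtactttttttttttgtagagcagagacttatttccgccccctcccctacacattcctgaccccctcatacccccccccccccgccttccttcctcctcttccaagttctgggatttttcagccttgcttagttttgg

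Searched on both strands in windows of 250 bases before to 50 bases after the start, ACGTG occurred in 10 of 44 windows of the genes (22.7%), beside 19.6% of all 32851 windows. The longer CACGTG, which contains ACGTG, occurred in 3 of 44 (6.82%), those of Lamtor1, Rheb and Sgk1, beside 7.15% of all. GTAAACA, a FOXO binding sequence, occurred in 3 of 44 (6.82%), those of Akt1, Pik3cg and Sesn1, beside 3.65% of all. TGACGTCA, the cyclic AMP response element, occurred in 0 of 44, beside 1.79% of all. The 44 windows covered 29 of the 32 genes. A match is a run of letters and was not tested as a binding site.

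Downstream effectors were Eif4ebp1 and Eif4ebp2, repressors of cap-dependent translation that mTORC1 inactivates, and Foxo3, a transcription factor that AKT and SGK kinases keep out of the nucleus. Eif4ebp1 read 9.06 and 8.81 in TregΔ142, against 8.61 and 8.61 in WT, a difference of 0.33 without overlap (SE 0.132, 95% interval 0.01 to 0.64, limma adjusted p = 0.419). Leaving out TregΔ142 replicate 1 took this difference to 0.20, and the unadjusted p was then above 0.05, as it was without either WT array. Eif4ebp2 read 10.40 and 10.32 in TregΔ142, against 10.41 and 10.40 in WT, a difference of −0.05. Foxo3 differed by −0.13 with overlap.

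**Figure D3:**
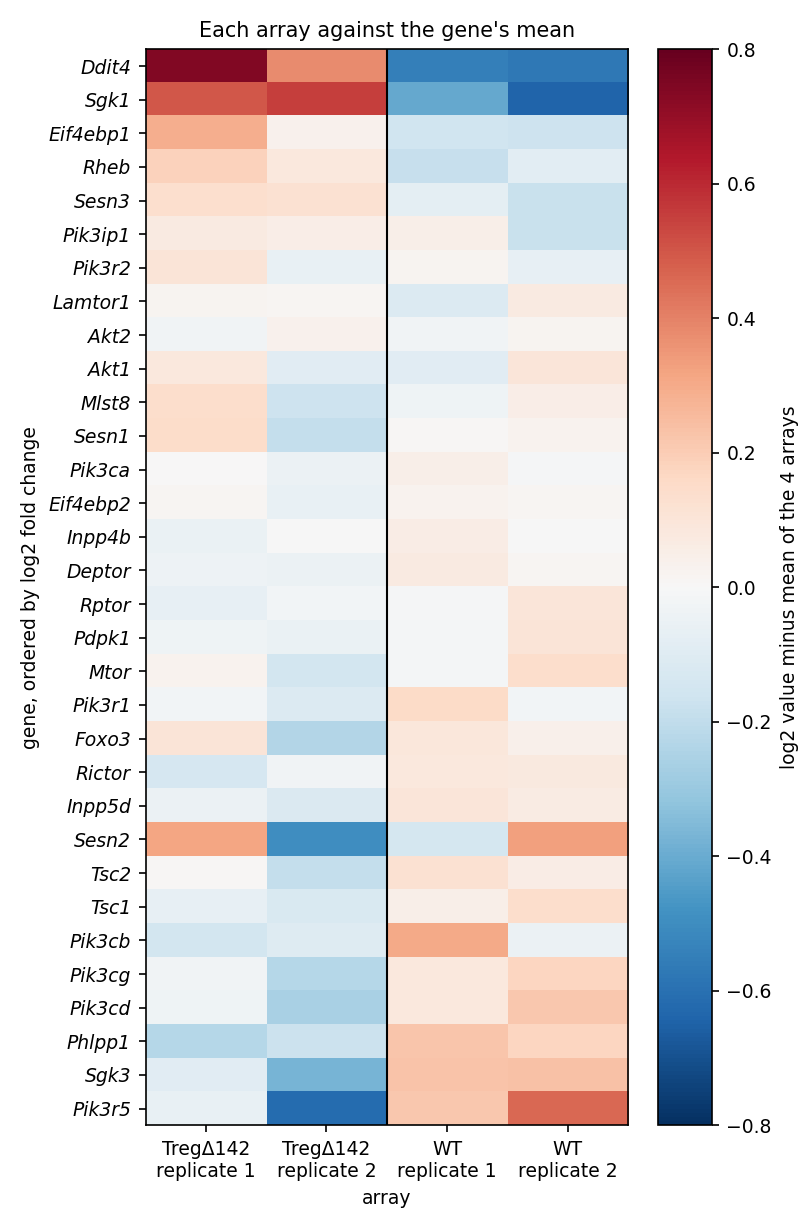
Each gene is shown with its value on every array minus its mean over the 4 arrays, on a colour scale in log2 units (red above, blue below), with the TregΔ142 arrays left of the WT arrays. Ddit4 and Sgk1 are the rows with the strongest contrast between groups, and in Sesn2 replicates differ more (0.81 in TregΔ142 and 0.47 in WT) than the group means (−0.18).

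Replicate gaps set how much could be seen. The median gap between arrays over the 32 genes was 0.09 in both groups, beside 0.15 in TregΔ142 and 0.14 in WT over all probe sets. All 32 genes lay above the median level of all probe sets, and gaps were not taken among probe sets above that level. TregΔ142 replicate 2 read below replicate 1 in 25 of 32 genes, and WT replicate 2 read below replicate 1 in 17. The 95% interval lay wholly within ±0.5 for 20 genes and within ±1 for 29, so differences beyond 2-fold in either direction lay outside the intervals of these 29. The exceptions were Pik3r5, Sgk1 and Ddit4.

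Other genes around the pathway were read from 6 lists with 76 measured genes in all. At an unadjusted p under 0.05, 12 were higher (15.8%) and 5 lower (6.58%) in TregΔ142 Tregs, beside the 6.82% and 4.85% of all probe sets, and none passed an adjusted p of 0.05. Among probe sets with a mean above the median of all, where most but not all of these genes lay, the shares were 8.2% and 6.16%. These 17 genes became 10 without TregΔ142 replicate 2 and 11 without either WT array. The median over these genes was 0.08. The lists were chosen with earlier results of these data known, so the comparison with all probe sets only describes them.

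Among 11 lipid kinase and adaptor relatives, 1 was higher and 1 lower at that level, with a list median of 0.10. Pik3r3, which encodes the regulatory subunit p55γ, read 8.46 and 8.39 in TregΔ142, against 7.46 and 7.08 in WT, 2.23-fold higher (log2 fold change 1.16, adjusted p = 0.0792). It was the gene past 2-fold in the 6 lists. Plekha1, which encodes a lipid-binding protein recruited by PI3K products, differed by −0.41.

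Among 22 mTOR complex partners and nutrient-sensing genes, 5 were higher and 2 lower, with a median of 0.01. Rragd, a RAG GTPase that brings mTORC1 to the lysosome, read 8.24 and 8.01 in TregΔ142, against 7.32 and 7.10 in WT, a difference of 0.91 (adjusted p = 0.101). Castor1, an arginine sensor that restrains mTORC1, read 8.79 and 9.004 in TregΔ142, against 8.13 and 8.08 in WT, a difference of 0.79. Both genes had every TregΔ142 array above every WT array. Rraga, another RAG GTPase, differed by 0.44 and Telo2, which helps mTOR to assemble, by −0.47.

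Of 9 receptor and ligand genes upstream, 3 were higher and 1 lower, with a median of 0.09. The 3 were Il2ra and Il2rb, chains of the interleukin-2 receptor, and the costimulatory receptor Icos, with differences of 0.42, 0.37 and 0.39. Il2ra encodes CD25, on which the cells were sorted. Igf1r, the receptor for insulin-like growth factor, read 9.04 and 9.21 in TregΔ142, against 9.56 and 9.58 in WT, a difference of −0.44 (adjusted p = 0.27).

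Of 17 ATF4 and mTORC1 output genes, 2 were higher and none lower, with a median of 0.10, namely Asns, asparagine synthetase, at 0.71 (7.52 and 7.58 in TregΔ142, 6.89 and 6.80 in WT) and Chac1, which degrades glutathione, at 0.27. Of 10 translation and growth effectors, Eef2k, the kinase that slows elongation, was higher by 0.63 (7.85 and 7.97 in TregΔ142, 7.32 and 7.24 in WT), and the median was 0.12. Of 8 FOXO target genes, S1pr1, the receptor that guides exit from lymphoid organs, was lower by 0.38 (10.15 and 9.93 in TregΔ142, 10.37 and 10.47 in WT), and the median was −0.04.

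**Figure D4:**
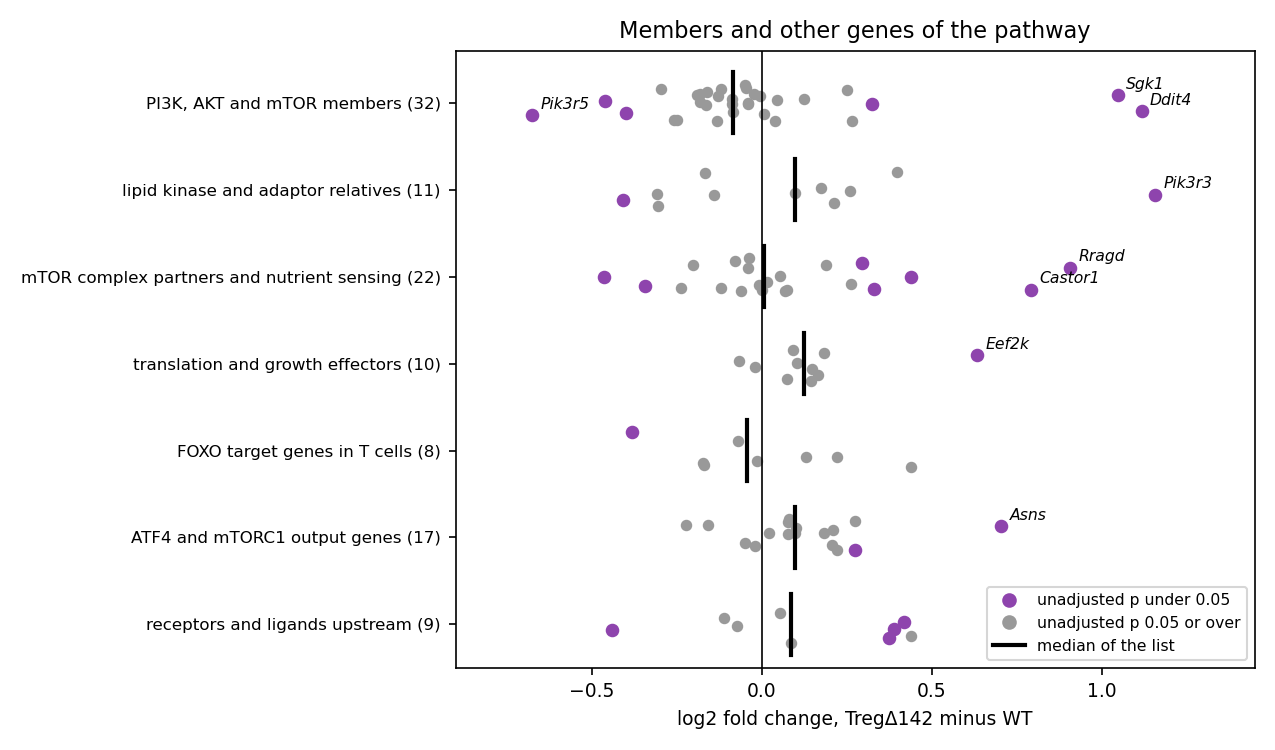
Log2 fold changes, TregΔ142 minus WT, are plotted for the 32 pathway genes (top row) and each measured gene of the 6 other lists, 1 point a gene, with a bar at each row's median and purple points at unadjusted p under 0.05. Pik3r3 at 1.16 is the point farthest to the right, and the medians lie between −0.09 and 0.12.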

How the data were processed

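RNA of TregΔ142 and WT Tregs (2 arrays each) was measured with Affymetrix Mouse Gene ST arrays. Deposited values were log2 expression for each probe set, which the authors computed by RMA (background correction, quantile normalization, probe summary), and the submitters' processing notes also name oligo. Because quantile normalization sets all arrays to the same distribution, a general shift of most transcripts is hidden. No counts or detection calls were used, and precision is limited by the number of arrays.

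Of 41345 rows, 23521 carried a single gene symbol in the platform annotation, 1820 with several and 16004 with none. Probe sets with 1 symbol were tested. Groups were compared with limma 3.58.1 (lmFit and eBayes, no block, no filter) in R 4.3.3, with Benjamini-Hochberg adjustment over these probe sets and a threshold of 0.05. A second threshold, after the study's methods, was 2-fold with unadjusted p under 0.05. Intervals are 95% moderated intervals. An exact permutation test of 2 against 2 arrays cannot go below p = 0.333, so none was run. Fits were checked on simulated data.

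Genes named were all measured pathway genes, Mir142, Foxp3 and Il2ra as checks, and up to 4 genes of each pathway list with the smallest unadjusted p under 0.05, with marker lists given by counts, levels and genes at unadjusted p under 0.05. The members and lists were chosen with earlier results of these data known. Alternatives were median centring, an intensity trend, a robust variance prior, probe sets above the median level, all rows, the mean of a gene's probe sets, an equal-variance test, a replicate block and leaving out each array. Promoter and microRNA sequences came from RefSeq (GRCm38.p6).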

Additional observations from a re-analysis of the deposited data

How the results depend on the processing

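Over 13 alternatives, 24 of the 32 pathway genes kept their direction and 8 reversed in at least 1. Most alternatives changed only the estimated spread or the probe sets tested, which leaves each difference as it was. A direction could change only under median centring, with an array left out or, for Deptor, with the mean of its probe sets. Median centring turned Pik3r2 to −0.0028, Akt2 to −0.041 and Lamtor1 to −0.0076. With each array left out in turn, differences ran from −0.039 to 0.13 for Pik3r2, −0.10 to 0.089 for Akt1, −0.028 to 0.040 for Akt2, −0.18 to 0.13 for Mlst8, −0.051 to 0.13 for Lamtor1, −0.21 to 0.13 for Sesn1, −0.59 to 0.22 for Sesn2 and −0.30 to 0.040 for Foxo3. A group reduced to 1 array added nothing to the estimated spread.

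Pathway genes past an adjusted p of 0.05 numbered 0, against 2 (Ddit4 and Sgk1) with an intensity trend in limma's variance, 2 (the same genes) among probe sets above the median level, and 0 to 1 without 1 array. The adjusted p of Ddit4 ranged from 0.0383 to 0.531 over the alternatives and that of Sgk1 from 0.0373 to 0.515. At unadjusted p under 0.05, 3 genes were higher, against 5 with the trend and 2 to 3 without 1 array, and Eif4ebp1 was not among them under median centring, over all rows, with the replicate block or with the equal-variance test. At this level 3 were lower, against 1 to 4 without 1 array. The 2 genes past 2-fold became 1 under median centring and 1 to 2 without 1 array.

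Over all probe sets, the 6 past an adjusted p of 0.05 became 115 with the trend, 91 above the median level, 2 over all rows, 0 with the equal-variance test and 0 to 128 without 1 array. The 119 past 2-fold became 293 over all rows, 67 with the equal-variance test and 116 to 229 without 1 array. The adjusted p of Mir142 was 0.195 over all rows and 0.514 with the equal-variance test. In the pathway lists, 17 genes at unadjusted p under 0.05 became 10 to 13 without 1 array, and Pik3r3 passed an adjusted p of 0.05 with the trend, above the median level and without WT replicate 1, so that the count of 0 became 1 in each and was 0 to 1 without 1 array.

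Same-numbered arrays did not deviate together (correlation −0.12), so the numbers were not taken as pairs. With the replicate block 5 probe sets passed an adjusted p of 0.05, and with the crossed pairing, chosen after seeing the data, also 5, with 0 pathway genes in both. The counts of genes past 2-fold and of negative differences were also added after seeing the data. The cause of these changes was not tested.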
